A study of Mus musculus with 8 samples.

Results

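The genes described here are 10 protein subunits of the nucleosome remodelling and deacetylase (NuRD) complex, the complex that Mbd2 recruits to methylated DNA. They are Chd3, Chd4, Chd5, Hdac1, Hdac2, Mta1, Mta2, Mta3, Gatad2a and Gatad2b, and all 10 were among the 19201 genes of the deposited table. The choice was by gene symbol and not by any measured value, though earlier results of these data were known when it was made. RNA was sequenced from the hippocampi of wild-type C57BL/6 mice and of Mbd2-/- mice on the same background, aged 10 to 12 weeks, with 4 libraries per genotype and the hippocampi of 2 mice pooled in each, and the numbers of males and females were matched across genotypes. Neither genotype carried a further allele or received a treatment, and littermates came from heterozygous parents. The Mbd2-/- allele is a germline knockout carried by all cells, and it leaves exon 1 of Mbd2 in place. Ribosomal RNA was depleted, so that the libraries hold total rather than poly(A)-selected RNA.

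NuRD joins a chromatin remodelling motor to a histone deacetylase in a single complex. Chd3, Chd4 and Chd5 are alternative ATP-dependent remodellers, Hdac1 and Hdac2 remove acetyl groups from histone tails, Mta1, Mta2 and Mta3 are the scaffold that holds and activates the deacetylases, and Gatad2a and Gatad2b link the methyl-CpG-binding subunit, either Mbd2 or Mbd3, to the remodeller. Within a family the paralogs can take each other's place, so the composition of the complex differs between tissues, and Chd5 is known as a remodeller of neurons.

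The promoters of the 3 members that were lower in Mbd2-/- mice are shown because Mbd2 binds methylated CG dinucleotides and because these sequences hold the letters it could read. Each window runs from 250 bases before to 50 bases after an annotated start in RefSeq (build GRCm38.p6), is written 5′ to 3′ on the gene's strand and has each CG in capitals. Where a gene has several starts, the first in the table is given.
Chd4 promoter, chr6:125095731-125096030, + strand: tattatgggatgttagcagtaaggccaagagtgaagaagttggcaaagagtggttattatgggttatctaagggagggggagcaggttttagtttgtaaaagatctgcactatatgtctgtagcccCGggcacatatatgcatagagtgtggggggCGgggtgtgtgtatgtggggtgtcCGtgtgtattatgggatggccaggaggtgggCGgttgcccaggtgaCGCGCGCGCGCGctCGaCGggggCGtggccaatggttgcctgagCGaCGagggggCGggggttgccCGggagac
Chd5 promoter, chr4:152338401-152338700, + strand: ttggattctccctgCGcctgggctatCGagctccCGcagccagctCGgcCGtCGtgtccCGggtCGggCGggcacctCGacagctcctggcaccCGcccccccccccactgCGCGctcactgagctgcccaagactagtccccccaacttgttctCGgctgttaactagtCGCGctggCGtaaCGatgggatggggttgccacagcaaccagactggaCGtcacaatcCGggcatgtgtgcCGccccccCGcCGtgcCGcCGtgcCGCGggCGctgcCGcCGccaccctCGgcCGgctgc
Gatad2b promoter, chr3:90292931-90293230, + strand: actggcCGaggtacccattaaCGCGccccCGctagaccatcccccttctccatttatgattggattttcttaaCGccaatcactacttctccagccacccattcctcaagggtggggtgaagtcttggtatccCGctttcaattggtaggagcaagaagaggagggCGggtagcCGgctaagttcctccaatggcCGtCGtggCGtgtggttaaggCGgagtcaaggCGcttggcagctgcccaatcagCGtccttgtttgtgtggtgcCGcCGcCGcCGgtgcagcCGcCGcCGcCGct
The windows hold 17 CG for Chd4, 32 for Chd5 and 22 for Gatad2b, more than in 68.6%, 90.5% and 76.9% of all promoters. RefSeq promoters were found for 7 of the 10 members, 11 windows in all, with 16 to 50 CG and a median of 29, against a median of 7 over all 32817 promoters of the same length. At least 1 CG, which reads the same on both strands, was found in 94.6% of all promoters. Methylation and binding at these windows were not analysed here, so the counts describe sequence only.

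The wild-type libraries held 8439570 to 23790825 reads on genes and the Mbd2-/- libraries 8087750 to 14020765. Levels are normalized counts, in which a library's reads on each gene are scaled by its size factor, and a gene counts as called where limma, fitted over 14504 genes, gave it a Benjamini-Hochberg adjusted p under 0.05. Mbd2 itself read 295, 363, 371 and 354 in the 4 wild-type libraries and 244, 240, 339 and 217 in the 4 Mbd2-/- libraries. It was called lower (log2 fold change -0.43, SE 0.12, adjusted p = 0.0174), and Mbd2-/- replicate 3 lay within the wild-type range, where reads summed over the gene include the intact exon 1. The Mbd2-/- libraries differed in a trend with transcript length. In each of Mbd2-/- replicates 1 to 3, genes with longer transcripts tended to lie below their wild-type mean (Spearman's rho across genes from -0.48 to -0.43). Replicate 4 gave -0.10, close to the wild-type libraries at -0.07 to 0.06. The fold changes of the members and other core subunits are therefore also given without Mbd2-/- replicate 4 and with the length trend of each library removed, as are the counts of several other lists. Leaving out Mbd2-/- replicate 4 keeps only the Mbd2-/- libraries that carry the trend, so that fit does not lessen it. It called 35.6% of all genes, against 22.0% with all libraries. Mbd2 itself changed by -0.35 (adjusted p = 0.0198) without Mbd2-/- replicate 4 and by -0.53 (0.00184) with the trend removed. Its call was lost without wild-type replicate 3 (-0.39, adjusted p = 0.0624), Mbd2-/- replicate 1 (-0.40, 0.0539) or Mbd2-/- replicate 2 (-0.39, 0.0576), and in limma without trend and robust moderation (0.0731).

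Of the 10 members, Chd4, Chd5 and Gatad2b were lower and Hdac1 was higher in Mbd2-/- hippocampus, and the other 6 were not called. Each of the 3 lower genes belongs to a family with a partner that was not called, Chd3 for the remodellers and Gatad2a for the linkers, and Hdac2 was likewise not called beside Hdac1. All 10 members passed the filter on low values. The 3 of 10 called lower stand against 10.0% of all genes tested, and the 1 of 10 called higher against 12.0%. The count of 3 became 0 without wild-type replicate 3, where 6.07% of all genes were called lower, and 0 without Mbd2-/- replicate 1 (6.35%). It was 1 without wild-type replicate 1 (5.99%), 2 (7.26%) or 4 (6.24%), and 0 in limma without trend and robust moderation (6.45%). Removal of the length trend left Gatad2b and Mta1 called lower and Hdac1 and Chd3 higher, where 6.8% of all genes were called lower and 8.09% higher. The genotypes did not overlap for 5 of the 10 members, the 4 called genes and Mta1, against 23.6% of all genes. The median log2 fold change over the members was -0.07, with all genes at -9.1e-05. In hippocampal tissue, fewer cells of a type and less RNA per cell cannot be told apart.

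**Figure D1:**
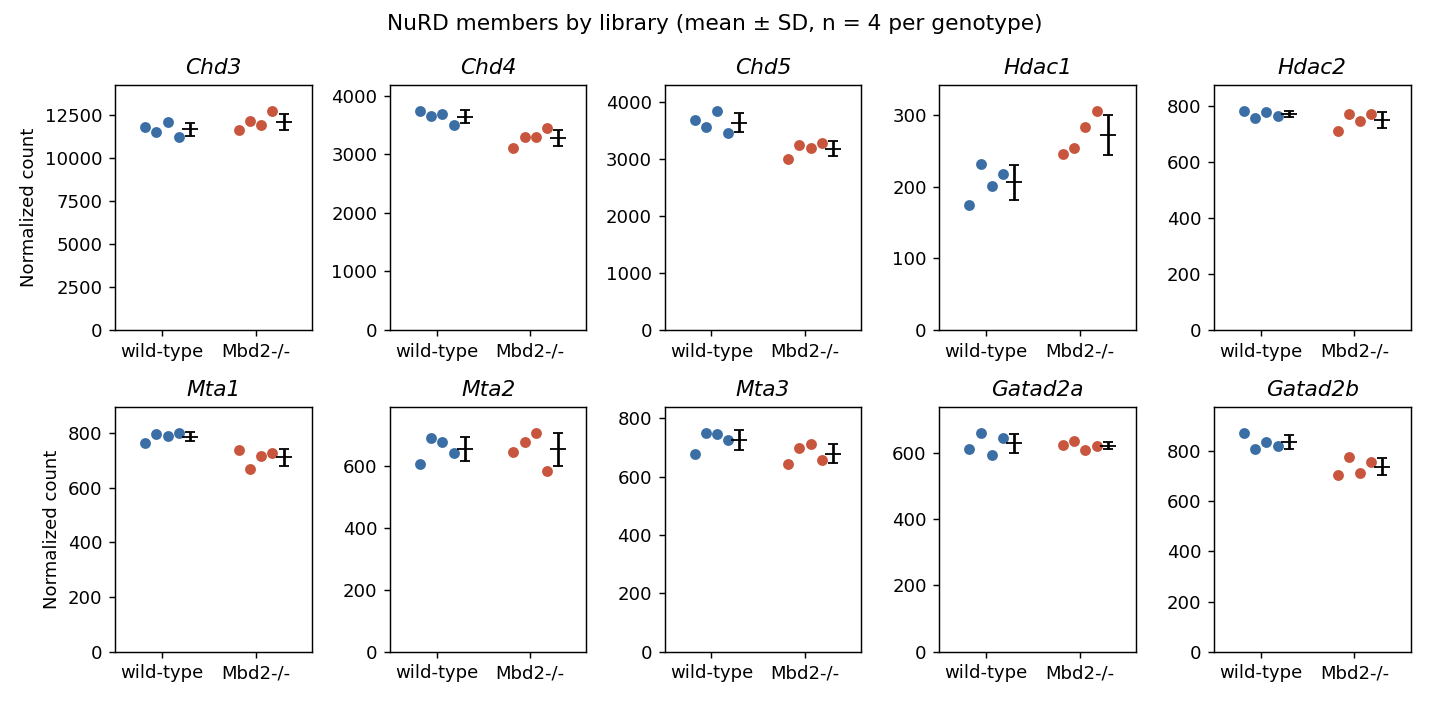
Normalized count of each NuRD member in each library (points, 1 per library in the order of the replicate numbers, axes from 0) for wild-type and Mbd2-/- hippocampus, with the mean and SD of 4 libraries beside them. The genotypes separate for Chd4, Chd5, Hdac1, Mta1 and Gatad2b and overlap for the other 5 members.

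Levels can be compared between genes only per length of transcript, taken as the longest GENCODE vM1 model on mm9. In wild-type hippocampus Chd3 was the most abundant member at 1605 ± 49.2 normalized counts per kb (SD, n = 4), followed by Chd4 at 544 ± 15.3, Gatad2b at 438 ± 14.6 and Chd5 at 383 ± 17.0. Mta1 lay at 278 ± 6.13, Hdac2 at 237 ± 3.43 and Mta2 at 208 ± 12.1. The lowest were Mta3 at 132 ± 6.16, Gatad2a at 121 ± 5.75 and Hdac1 at 101 ± 12.2. Mta3 and Gatad2a were the only neighbours in this order whose wild-type ranges overlapped. The place of Gatad2b rests on a single annotated transcript of 1906 bases with only 118 bases of 3′ UTR, whereas the models of Gatad2a, Mta3 and Chd5 carry 2775, 3569 and 3326 bases. A longer true transcript of Gatad2b would lower its level per kb and its share of the Gatad2 pair. The last place of Hdac1 and its share of the Hdac pair are uncertain too, since 54.5% of its 100-base windows are identical in a copy elsewhere in the genome, described with Hdac1.

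**Figure D2:**
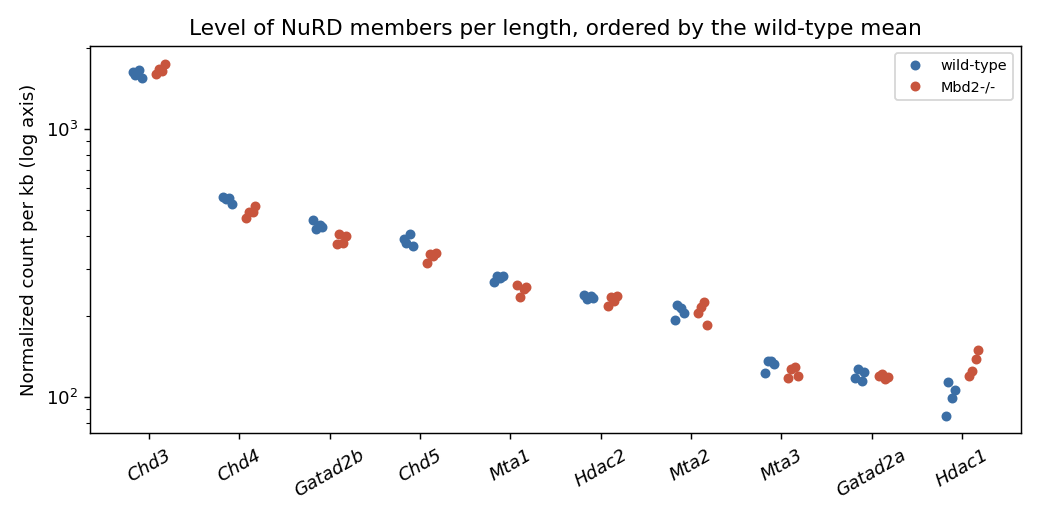
Level of each member as normalized count per kb of its longest transcript (log axis), with 1 point per library, ordered by the wild-type mean. The order runs from Chd3 at 1605 to Hdac1 at 101 in wild-type hippocampus.

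The Chd remodellers did not move together. Chd4 (mm9 chr6:125045999-125080609, plus strand), the motor found in NuRD of most cell types, read 3735, 3659, 3685 and 3497 in wild-type and 3104, 3289, 3293 and 3440 in Mbd2-/- libraries. Its 4 Mbd2-/- values lay below the lowest wild-type value, by a margin that was small for replicate 4. The mean fell by 9.98%, from 3644 ± 103 to 3282 ± 138 (SD, n = 4 each), with a log2 fold change of -0.15 (SE 0.05, limma adjusted p = 0.0343).

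Chd5 (chr4:151712760-151764303, plus strand), the remodeller known from neurons, read 3681, 3562, 3834 and 3459 in wild-type and 2991, 3248, 3189 and 3281 in Mbd2-/- libraries. All Mbd2-/- libraries lay below all wild-type libraries. Its mean fell by 12.6%, from 3634 ± 162 to 3177 ± 130, with a log2 fold change of -0.19 (SE 0.05, limma adjusted p = 0.0128). The study lists Chd5 among the reduced autism-associated genes that it selected on these same libraries, so that listing is not independent of the value given here.

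Chd3 (chr11:69156775-69182928, minus strand), the closest relative of Chd4, read 11791, 11533, 12060 and 11225 in wild-type and 11646, 12164, 11895 and 12715 in Mbd2-/- libraries. The groups overlapped, and Mbd2-/- replicate 4 was the highest of all 8. The log2 fold change was 0.05 (95% confidence interval -0.04 to 0.15, limma adjusted p = 0.398), so a rise of up to 0.15 on the log2 scale is within the error.

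The balance within the family also separated the genotypes. Chd3 made up 63.4% ± 0.173 of the summed Chd level per kb in wild-type (SD, n = 4) and 66.9% ± 0.383 in Mbd2-/- hippocampus, with ranges of 63.2 to 63.5% and 66.4 to 67.3%. The share of Chd4 went from 21.5% ± 0.331 to 19.7% ± 0.206 and that of Chd5 from 15.1% ± 0.228 to 13.4% ± 0.232. The summed level itself was 2532 ± 78.9 and 2492 ± 94.8 normalized counts per kb. On the log2 scale the ratio of Chd3 to Chd4 was higher in Mbd2-/- libraries by 0.21 and that of Chd3 to Chd5 by 0.25, both without overlap, at p = 0.0286 in an exact two-sided permutation test. This is the smallest p that 4 libraries against 4 can give, and over the 8 paralog pairs compared it became 0.0571 after Benjamini-Hochberg adjustment, which misses 0.05. The ratio of Chd4 to Chd5 differed by 0.04 with overlapping groups (exact permutation p = 0.0857, adjusted 0.137).

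The separate calls of Chd4 and Chd5 depended on transcript length and on single libraries. With the length trend removed, Chd4 changed by -0.04 (limma adjusted p = 0.585) and Chd5 by -0.06 (0.479), and Chd3 was called higher at 0.17 (0.00414), with 8.09% of genes called higher and 6.8% lower in that fit. The ratio differences were then 0.21 for Chd3 to Chd4 and 0.23 for Chd3 to Chd5, again without overlap (exact permutation p = 0.0286). The 3 genes have transcripts of 7261, 6697 and 9486 bases for Chd3, Chd4 and Chd5. Without Mbd2-/- replicate 4, Chd4 changed by -0.17 (adjusted p = 0.00205), Chd5 by -0.21 (0.000709) and Chd3 by 0.03 (0.540). The call of Chd4 was kept without Mbd2-/- replicate 3 or 4 and lost without any 1 of the other 6 libraries (adjusted p = 0.0514 to 0.112), where the log2 fold changes were -0.17 to -0.13 against -0.15 with all libraries. In limma without trend and robust moderation neither Chd4 (0.0881) nor Chd5 (0.0538) was called. That of Chd5 was lost when wild-type replicate 3 (-0.17, 0.0564) or Mbd2-/- replicate 1 (-0.16, 0.0519) was left out and kept without any 1 of the other 6. Chd3 and Chd5 also share exon sequence with opposite-strand genes, Gm17305 and Gm13645, and whether reads were counted by strand is not given in the sources used here.

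**Figure D3:**
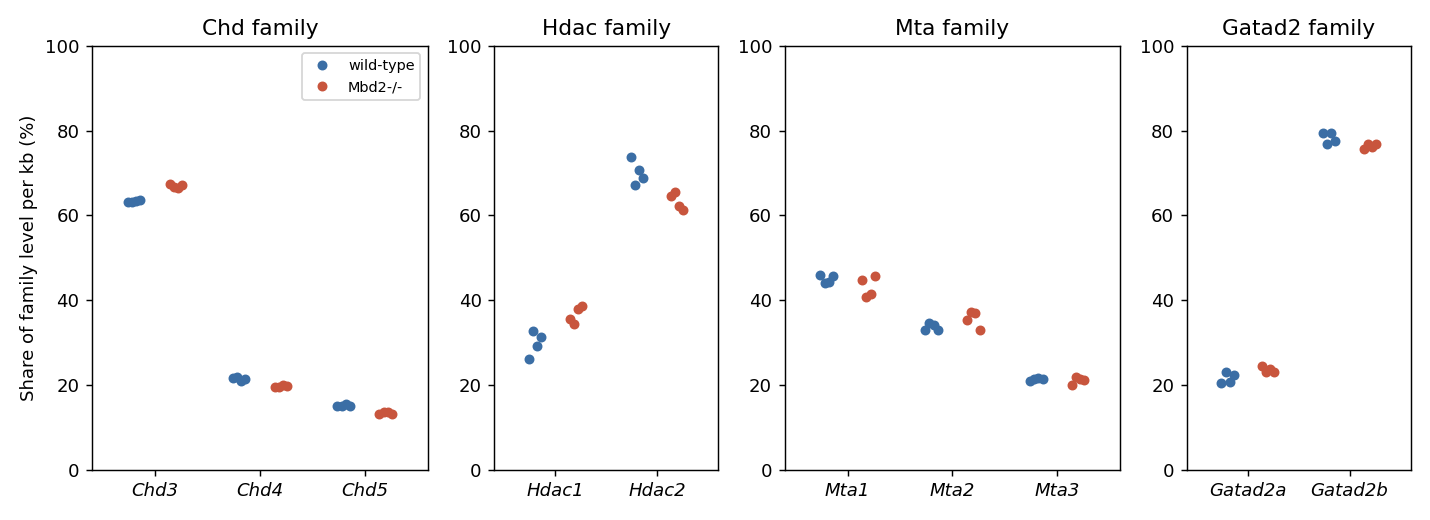
Share of each paralog in the summed level per kb of its family (%), 1 point per library, for the Chd, Hdac, Mta and Gatad2 families. Chd3 and Hdac1 had larger shares in all Mbd2-/- than in all wild-type libraries, Chd4 and Chd5 smaller ones, Gatad2a and Gatad2b separated by a narrow margin (at most 23.0% in wild-type and at least 23.1% in Mbd2-/- libraries for Gatad2a), and the 3 Mta shares overlapped between genotypes.

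Of the deacetylases, Hdac1 was higher in Mbd2-/- hippocampus and Hdac2 was not called. Hdac1 (chr4:129193348-129219957, minus strand) read 174, 232, 201 and 217 in wild-type and 245, 254, 284 and 306 in Mbd2-/- libraries. All Mbd2-/- libraries lay above all wild-type libraries, with the lowest wild-type value in replicate 1. The mean rose by 32.2%, from 206 ± 24.8 to 272 ± 27.7 (SD, n = 4 each), and the log2 fold change was 0.40 (SE 0.10, 95% confidence interval 0.19 to 0.61, limma adjusted p = 0.00891). It had the fewest reads of all members, 116 to 409 per library.

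Hdac2 (chr10:36694350-36721695, plus strand), its close paralog and the more abundant of the pair here, ranged from 757 to 781 in wild-type and from 711 to 772 in Mbd2-/- libraries. Its log2 fold change was -0.04 (95% confidence interval -0.16 to 0.08, limma adjusted p = 0.654), with -0.05 (0.479) without Mbd2-/- replicate 4 and -0.04 (0.694) with the length trend removed. The Hdac1 share of the pair's level per kb was 29.9% ± 2.84 in wild-type and 36.6% ± 1.97 in Mbd2-/- hippocampus. The log2 ratio of Hdac1 to Hdac2 was higher by 0.44 without overlap (exact two-sided permutation p = 0.0286, 0.0571 over the 8 pairs). The call of Hdac1 held without any 1 library (log2 fold changes from 0.32 to 0.46, with 0.34 without Mbd2-/- replicate 4) and with the length trend removed (0.31, limma adjusted p = 0.0427).

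Hdac1 is the only member with a near-identical copy elsewhere in mm9, taken as at least 95% identity over at least 100 bases. The longer of its 2 copies, an intronless stretch annotated as Gm10093 at chr17:78890879-78892881, matched 2004 bases at 98.8% identity. Copies together covered 97.7% of the Hdac1 transcript. The stretch of coding sequence below, transcript bases 457 to 556, is shown with its counterpart at chr17:78891294-78891393 on the plus strand because reads of 100 bases had to be assigned between such sequences. It was picked for its 5 differing bases, which are in capitals.
Hdac1 transcript: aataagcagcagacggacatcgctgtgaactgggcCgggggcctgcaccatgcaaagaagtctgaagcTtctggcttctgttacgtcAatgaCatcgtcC
Gm10093 copy: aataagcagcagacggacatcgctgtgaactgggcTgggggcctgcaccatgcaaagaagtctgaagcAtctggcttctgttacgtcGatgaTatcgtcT
Across the transcript, 1057 of 1939 windows of 100 bases, or 54.5%, were identical in this copy. Gm10093 is not among the genes of the table, and how reads with several matches were handled is not given in the sources used here, so the level of Hdac1 is uncertain. Its part in the difference between the genotypes was not tested. No copy by this rule was found for the other 9 members.

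The Mta scaffolds showed no call. Mta1 (chr12:114336489-114375417, plus strand) read 761, 796, 788 and 800 in wild-type and 738, 668, 714 and 726 in Mbd2-/- libraries. The groups did not overlap, but the log2 fold change of -0.14 (95% confidence interval -0.27 to -0.02) missed the threshold (limma adjusted p = 0.0784). It passed without Mbd2-/- replicate 4 (-0.15, adjusted p = 0.0321, in a fit that called 17.7% of genes lower and 17.9% higher) and with the length trend removed (-0.17, 0.0436).

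Mta2 (chr19:9016365-9026793, plus strand) ranged from 606 to 691 in wild-type and from 583 to 706 in Mbd2-/- libraries, with a log2 fold change of -0.0031 (95% confidence interval -0.15 to 0.14, limma adjusted p = 0.981). Mta3 (chr17:84105503-84223055, plus strand) ranged from 676 to 749 and from 644 to 712, with a log2 fold change of -0.10 (95% confidence interval -0.23 to 0.03, adjusted p = 0.275). Both pairs of ranges overlapped. Without Mbd2-/- replicate 4 the changes were 0.05 (0.558) for Mta2 and -0.08 (0.302) for Mta3, and with the length trend removed -0.0073 (0.958) and -0.0089 (0.946). None of the 3 Mta ratios separated the genotypes. The log2 ratio of Mta1 to Mta2 differed by -0.14 (exact permutation p = 0.143, 0.163 over the 8 pairs), that of Mta1 to Mta3 by -0.05 (0.486 and 0.486) and that of Mta2 to Mta3 by 0.09 (0.114 and 0.152). In wild-type hippocampus Mta1 held 45.0% ± 0.957 of the family's level per kb, Mta2 33.7% ± 0.786 and Mta3 21.3% ± 0.224 (SD, n = 4), and in Mbd2-/- hippocampus 43.2% ± 2.38, 35.7% ± 1.96 and 21.2% ± 0.782.

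Of the linkers between Mbd2 and the remodeller, Gatad2b was lower and Gatad2a was not called. Gatad2b (chr3:90145576-90162042, plus strand) read 872, 807, 838 and 822 in wild-type and 706, 775, 714 and 756 in Mbd2-/- libraries, without overlap. Its mean fell by 11.6%, from 835 ± 27.9 to 738 ± 33.0 (SD, n = 4 each), with a log2 fold change of -0.18 (SE 0.06, limma adjusted p = 0.0357). Gatad2a (chr8:72430968-72520278, minus strand) ranged from 595 to 661 in wild-type and from 610 to 636 in Mbd2-/- libraries, with a log2 fold change of -0.01 (95% confidence interval -0.14 to 0.11, adjusted p = 0.894). Its Mbd2-/- values lay inside the wild-type range, and the change was -0.01 (0.900) without Mbd2-/- replicate 4 and 0.07 (0.479) with the length trend removed.

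The log2 ratio of Gatad2a to Gatad2b was higher in Mbd2-/- libraries by 0.17 without overlap (exact two-sided permutation p = 0.0286, 0.0571 over the 8 pairs), and by 0.35 with the length trend removed. Per kb, Gatad2b made up 78.4% ± 1.27 of the pair in wild-type and 76.4% ± 0.638 in Mbd2-/- hippocampus. These shares rest on transcript models of 1906 bases for Gatad2b and 5208 for Gatad2a and would fall with a longer Gatad2b model. Before division by length, the wild-type mean was 835 for Gatad2b and 629 for Gatad2a. With the length trend removed the change of Gatad2b was -0.29 (limma adjusted p = 0.00327), a value that depends on the short transcript model described above. Without Mbd2-/- replicate 4 it was -0.19 (0.00929). The call was kept without Mbd2-/- replicate 2 or 4 and lost without any 1 of the other 6 libraries (adjusted p = 0.0518 to 0.110), where the log2 fold changes were -0.19 to -0.16 against -0.18 with all libraries. It was also lost in limma without trend and robust moderation (0.0613).

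**Figure D4:**
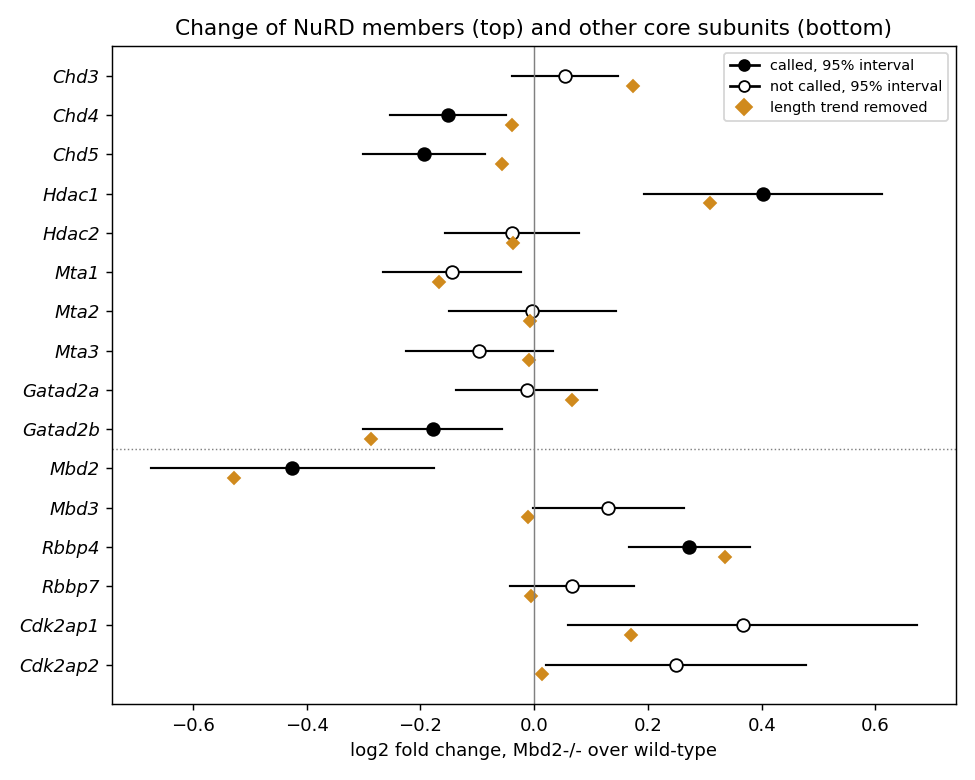
Log2 fold change of Mbd2-/- over wild-type for the 10 members (above the dotted line) and 6 other core subunits (below it), with limma's 95% confidence interval, filled where called. Diamonds give the change with the length trend removed, which moved Chd3, Chd4 and Chd5 upward and left Hdac1 and Rbbp4 above 0.

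Beyond the 10 members, the NuRD core holds the methyl-CpG-binding subunits and the small or histone-binding ones. Of these 6 genes, Rbbp4 was called higher and Mbd2 lower, against 22.0% of all genes called in either direction, and their median log2 fold change was 0.19. With the length trend removed the median was 0.0043 and the same 2 genes were called, where 14.9% of all genes were. Rbbp4, a histone chaperone shared with the Sin3 and PRC2 complexes, read 1932, 1773, 1792 and 1853 in wild-type and 2222, 2221, 2302 and 2134 in Mbd2-/- libraries. The groups did not overlap, and the log2 fold change was 0.27 (SE 0.05, limma adjusted p = 0.00152). It was called without any 1 library (0.29 without Mbd2-/- replicate 4) and with the length trend removed (0.34). Its exons overlap those of Sync on the opposite strand.

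Mbd3, which takes the place of Mbd2 in a separate form of NuRD, had a log2 fold change of 0.13 (95% confidence interval -0.0028 to 0.26, limma adjusted p = 0.148). It was called without Mbd2-/- replicate 4 (0.18, adjusted p = 0.00914), and with the length trend removed the value was -0.01. Rbbp7, the paralog of Rbbp4, had a log2 fold change of 0.07 (limma adjusted p = 0.378), which was 0.08 (0.216) without that library and -0.0049 (0.961) with the trend removed. Cdk2ap1 and Cdk2ap2, small accessory subunits, had log2 fold changes of 0.37 (0.0792) and 0.25 (0.109). With the length trend removed these were 0.17 (0.474) and 0.013 (0.950), and without Mbd2-/- replicate 4 they were 0.38 (0.0516) and 0.29 (0.0419). Without Mbd2-/- replicate 1, the highest library for Cdk2ap2, that gene changed by 0.15 (0.325). Cdk2ap1 was called without wild-type replicate 2 (0.48, adjusted p = 0.0344) or Mbd2-/- replicate 3 (0.45, 0.0386). Cdk2ap1 and Rbbp7 also have near-identical copies, on chromosomes 11 and X, that matched 80.2% and 6.71% of their 100-base windows, and 7 short copies covered 2.47% of the Rbbp4 transcript.

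Related complexes gave mixed counts, beside 12.0% of all genes called higher and 10.0% lower. Of 16 tested factors that bind NuRD, Pwwp2a rose from 592 ± 30.6 to 775 ± 45.1 normalized counts (limma adjusted p = 0.000708), while Zmynd8 fell by 0.20 (0.0226) and Zfp512b fell by 0.24 (0.0111) on the log2 scale. Bcl11b, a zinc finger factor of neurons and the most abundant of them, had a log2 fold change of -0.13 (0.0699), and the median was -0.07. The partners of Chd4 in the ChAHP complex held no call in 4 genes, with Cbx5, a heterochromatin protein and the most abundant, at -0.11 (0.252) and a median of -0.0047. In the Sin3 complex, the other main home of Hdac1 and Hdac2, Suds3 (0.27), Sap30 (0.35) and Ing1 (0.23) were called higher, and Sin3b (-0.19), the most abundant, and Phf12 (-0.18) lower, with log2 fold changes in parentheses, of 14 genes with a median of 0.06. With the length trend removed, only Pwwp2a (0.39) of the NuRD-binding factors and Suds3 (0.22) of the Sin3 genes were still called, and the medians were 0.0035 and -0.017. That fit called 8.09% of all genes higher and 6.8% lower. Without Mbd2-/- replicate 4 the counts were 2 higher and 4 lower for the NuRD-binding factors, 1 lower for the ChAHP partners, and 5 higher and 3 lower for the Sin3 genes, in a fit that called 17.9% of all genes higher and 17.7% lower.

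In the CoREST complex, which also carries Hdac1 or Hdac2, Phf21a was called higher (log2 fold change 0.18) and Rcor1 lower (-0.28), of the 7 genes reported. Over all genes the shares were again 12.0% higher and 10.0% lower. Without Mbd2-/- replicate 4 the counts were 3 higher and 1 lower, where 17.9% of all genes were called higher and 17.7% lower. Of the 9 other histone deacetylases only Hdac5, a class II enzyme that moves between nucleus and cytoplasm, was called, at 0.18 (limma adjusted p = 0.0292), and their median was -0.04. Of the 7 other Chd remodellers, Chd6 (-0.27) and Chd8 (-0.25) were called lower, none higher, and the median was -0.18. Chd8 was their most abundant member and went from 1887 ± 53.4 to 1592 ± 32.5 normalized counts (limma adjusted p = 0.00255). The summed level of the 7 genes was 6305 to 6671 in wild-type libraries, 5218 to 5557 in Mbd2-/- replicates 1 to 3 and 6364 in replicate 4, which lay inside the wild-type range. Without that library 5 of the 7 were called lower (median -0.25), where 17.7% of all genes were, and with the length trend removed none was, where 6.8% of all genes were (median -0.048, Chd6 at -0.12 and Chd8 at -0.12). With the trend removed, Phf21a (0.29) and Hdac5 (0.26) were still called, where 8.09% of all genes were called higher. Rcor1 (-0.19, limma adjusted p = 0.156) was not.

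**Figure D5:**
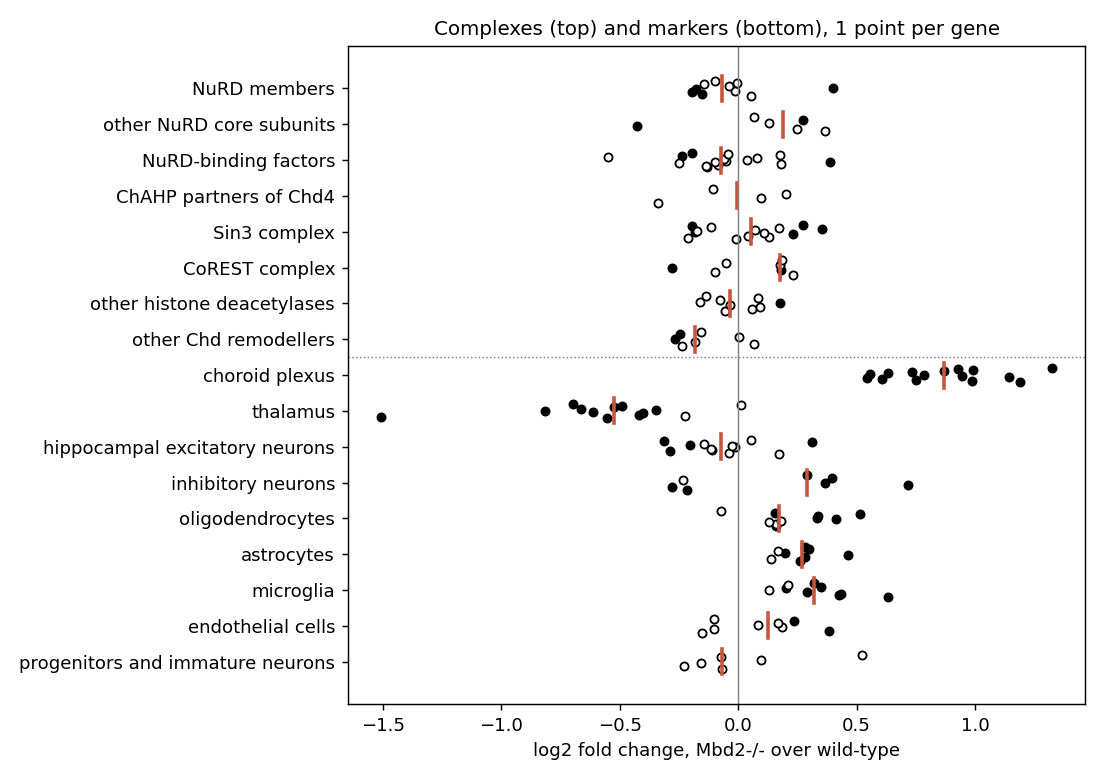
Log2 fold change of Mbd2-/- over wild-type for each tested gene (1 point per gene, filled where called) in NuRD, related complexes (above the dotted line) and marker lists (below it), with the median of each list as a bar. The members have a median of -0.07, and the choroid plexus markers, with a median of 0.87, and thalamus markers, with -0.52, lie furthest from 0.

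Markers of other cell types and of neighbouring tissue also differed between the genotypes. Their counts stand beside 12.0% of all genes called higher and 10.0% lower. All 15 choroid plexus markers were called higher, with summed normalized counts of 24410 to 26129 in wild-type and 47233 to 53617 in Mbd2-/- libraries, and Ttr was the most abundant. Of 13 thalamus markers 11 were called lower and none higher, with sums of 6133 to 6284 and 4131 to 4739, and Rora was the most abundant. Hippocampal excitatory neuron markers, of which Slc17a7 was the most abundant, were present in all libraries with sums of 30820 to 31263 and 26615 to 30394, and 3 of 12 were called lower and 1 higher.

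Oligodendrocyte markers were called higher for 6 of 10 genes (78897 to 80207 against 92829 to 99216), astrocyte markers for 6 of 8 (107664 to 110035 against 117502 to 141522) and microglia markers for 7 of 9 (5441 to 5689 against 6174 to 7060), with none lower in these 3 lists. Their most abundant genes were Mbp, which was called, and Slc1a2 (0.17, limma adjusted p = 0.0525) and Csf1r (0.13, 0.0749), which were not. Endothelial markers were called higher for 2 of 8, against 12.0% of all genes called higher and 10.0% lower. The most abundant of them, Flt1, had a log2 fold change of -0.10 (limma adjusted p = 0.357). Inhibitory neuron markers were called higher for 4 of 7 and lower for 2, with the most abundant, Gad1, among the lower ones (-0.21). None of 6 progenitor and immature neuron markers was called, with Sox11, the most abundant, at -0.07. Without Mbd2-/- replicate 4, 1 of these 6 was called lower, where 17.7% of all genes were. With the length trend removed the choroid plexus and thalamus counts were again 15 of 15 higher and 11 of 13 lower, while 5 oligodendrocyte, 8 astrocyte and 3 microglia markers were called higher, and inhibitory neuron markers gave 1 higher and 3 lower. Of all genes, 8.09% were called higher and 6.8% lower in that fit. No listed marker was at 0 in any library. The part of these differences in the lower values of Chd4, Chd5 and Gatad2b and the higher value of Hdac1 was not tested.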

How the data were processed

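Total RNA from mouse hippocampus was depleted of ribosomal RNA and sequenced in 100-base paired-end reads, in 4 wild-type and 4 Mbd2-/- libraries. The authors removed duplicate reads, aligned to mm9 with STAR and compared genotypes with DESeq2. Versions and the read counter are not given in the sources used here. Per library they deposited a signal in normalized counts, which are gene reads scaled by the size factor from DESeq2. The fold changes and p-values of the authors' own comparison, deposited beside it, were not used. Reads were recovered as whole multiples of the smallest value above 0, to within 0.01 of a read for 100% of values. No pair of libraries within a genotype was a duplicate (variance over counting from 2.07 to 16.2).

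The test was limma 3.58.1 (R 4.3.3, trend and robust moderation) on the log2 of the normalized count plus 1, for the 14504 genes averaging 10 or more normalized counts. Fold changes are on this scale, which understates those of low genes. Paralog ratios were compared with exact two-sided permutation tests (scipy 1.17.1). Alternatives on recovered reads used edgeR 4.0.16, DESeq2 1.42.0 and limma-voom, and the scripts were tested on simulated data. Gene models came from GENCODE vM1, matched by symbol for 94.3% of genes, and copies were sought with blastn 2.17.0. Same-numbered libraries did not deviate together (correlations -0.10, -0.06, 0.07 and 0.04), so the fit was unpaired.

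The members, lists and tests were chosen with earlier results of these data known. Named genes are all members and core subunits, the called and most abundant genes of each complex list, the most abundant of each marker list and the 3 genes most like the called member with the smallest p. A gene of the CoREST list is not reported here, and the list's counts and its median in the plot leave it out. Gm10093, Sync, Marcksl1 and the other neighbours of a member were named after their values or positions were seen. Intervals and depth cover counting and library spread only, as no molecular identifiers tell reads from the same molecule apart.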

Additional observations from a re-analysis of the deposited data

Results flagged for a closer look

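Of 32 groups of 4 libraries examined, over the 16 NuRD core genes, 2 held a value far from the other 3, and chance sets apart about 1 group in 20. Rbbp7 in wild-type replicate 3 was at 1491 normalized counts, with the other wild-type libraries between 1619 and 1626. Cdk2ap2 in Mbd2-/- replicate 1 was at 192 normalized counts, with the other Mbd2-/- libraries between 144 and 150. None of the 10 members had such a value.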

How the results depend on the processing

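Hdac1 and Rbbp4 were called in all 13 other settings that used all libraries and without any 1 of the 8 libraries. In the 13 settings Chd5 and Gatad2b were called in 11, Chd4 in 10 and Mbd2 in 12. Of the members, 3 were lower in the fit reported. That count was 1 with the replicate number as a block, where Chd4 (adjusted p = 0.0536) and Gatad2b (0.0574) missed the threshold and Chd5 (0.0185) did not, 0 with limma without trend and robust moderation (Chd4 0.0881, Chd5 0.0538, Gatad2b 0.0613), and 0 to 4 without 1 library. It was 2 with the length trend removed (Gatad2b and Mta1, with Chd4 and Chd5 lost), where 6.8% of all genes were called lower. With a GC trend removed it was 4, where 17.1% of all genes were called lower. The replicate block changed no other call of a member. The count of members called higher was 2 with the length trend removed (Hdac1 and Chd3), where 8.09% of all genes were called higher. The count of other core subunits called, of 6, was 1 without trend and robust moderation and 1 to 4 without 1 library. The count of 4 came without Mbd2-/- replicate 4, where 35.6% of all genes were called. All genes called numbered 3185 in the fit reported, 2112 with the length trend removed and 2073 to 5156 without 1 library, the highest again without Mbd2-/- replicate 4, and 4532 with a GC trend removed, an alternative chosen after seeing the data. Values near 0 changed sign, none of them called. These were Mta2 without 1 library (-0.042 to 0.050), Gatad2a with the length trend removed (0.067) or without 1 library (-0.039 to 0.011), and, with the length trend removed, Mbd3 (-0.011) and Rbbp7 (-0.0049). The cause was not tested, except that leaving out a library leaves fewer samples. The 4 paralog ratios that separated the genotypes did so also with the length trend removed. Leaving out a library or flipping signs of same-numbered pairs cannot reach 0.05 for them (smallest exact p 0.0571 and 0.125), so they gave no call, and without 1 library the log2 differences were 0.20 to 0.22 for Chd3 to Chd4, 0.24 to 0.26 for Chd3 to Chd5, 0.36 to 0.51 for Hdac1 to Hdac2 and 0.13 to 0.21 for Gatad2a to Gatad2b. Rescaling the libraries moved the median of all genes by under 0.01 on the log2 scale. Depth limits Hdac1, with 116 to 409 reads, more than the other members.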

Other observations

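Hdac1 and Rbbp4, the 2 genes of the NuRD core called higher, lie on the same strand of mouse chromosome 4 with 180733 bases between them (mm9), a position noticed after their values were seen. Of the 5 tested genes annotated between them, Marcksl1, next to Hdac1, was called higher, from 734 ± 52.5 to 896 ± 108 normalized counts (SD, n = 4 each, log2 fold change 0.28, limma adjusted p = 0.0203), and its change was 0.13 (0.178) with the length trend removed and 0.36 (5.15e-05) without Mbd2-/- replicate 4. The other 4 were not called. Zbtb8os had a log2 fold change of 0.07 (adjusted p = 0.736), Zbtb8a of -0.08 (0.737), Zbtb8b of -0.27 (0.333) and Bsdc1 of -0.05 (0.567).

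The tested genes outside the members whose log2 level was most like that of Hdac1 over the 8 libraries were Aspa, Plscr2 and Mak16, each with a Pearson's r of 0.97. Aspa encodes aspartoacylase, an enzyme of oligodendrocytes that splits N-acetylaspartate, and went from 235 ± 20.6 to 291 ± 22.3 normalized counts (SD, n = 4 each, limma adjusted p = 0.0169). Plscr2 was at 15.8 ± 3.82 and 23.0 ± 4.39 and Mak16 at 147 ± 14.6 and 174 ± 8.57 normalized counts, neither of them called. The 8 libraries share the difference between the genotypes, so such correlations are a description only.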
